A study of Mus musculus with 16 samples.

Results

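The genes described here are 46 markers and signals of liver innate immunity, covering resident macrophages, neutrophils, chemokines and inflammatory sensors. They were chosen by name and looked up by symbol or synonym in the array annotation, using probe sets that name 1 gene. Where a gene had several, the brightest on average over the 16 arrays was used. Of the 46, 45 were measured among 18194 genes, and Retnlg was not analysed here. They were read in liver of male KK-Ay mice aged 11 weeks, 8 fed a normal diet and 8 fed that diet with 0.1% of a maple syrup extract (MSE). KK-Ay is an obese strain with the yellow agouti allele that becomes diabetic, and both diet groups carried it, so there is no lean group in the comparison. All mice were housed singly, pair-fed on their diet for 43 days and fasted for 16 h before liver collection. The question is whether the extract shifted immune gene expression in the diabetic liver.

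Kupffer cells are the resident macrophages of the liver sinusoids, where they clear particles, dying cells and bacterial products from portal blood. When they or hepatocytes sense damage they release cytokines and chemokines, small secreted proteins that draw monocytes and neutrophils out of the blood. In obese and diabetic liver, monocyte-derived macrophages can join or replace the resident population.

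The deposited values are log2-like, with a range of 5.05 to 14.6 over all probe sets, and for most genes they vary between mice by millionths of a log2 unit. Over the 16 mice a typical probe set had an SD of 4.98 millionths (the median). An SD within diets above 1000 millionths was found for 201 of 18194 genes, among them 2 members, Cxcl1 and Cxcl9, and the highest was 1.02 log2 units. Differences are not read as fold changes, since what compressed most of the values is unknown. Values in each mouse are therefore given below as the deviation from the gene's mean over the 16 mice, in millionths of a log2 unit. Differences are given as MSE minus normal diet divided by the pooled SD within diets (SDs), with a 95% interval from limma. The standard error of such a difference is close to 0.5 SDs with 8 mice per diet. Arrays give no counts, the number of mice limits the precision, and no detection call came with the values. The hepatocyte genes Alb, Apoa1 and Ttr had means of 14.34, 13.81 and 13.94 log2 units, near the top of the range in all 16 livers.

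No gene of the group passed the test. Limma called 0 of 45 members at an adjusted p under 0.05, and the smallest adjusted p among them was 0.685 for Il18. Over all 18194 genes it also called 0, which is 0% of those tested. At an unadjusted p under 0.05 it found 1 member lower with MSE and 0 higher, 2.22% of members, where 4.07% of all genes were lower and 2.59% higher at that rule (6.66% in all). The count is thus below the background. In direction, 34 of 45 members (75.6%) had a lower mean with MSE, where 51.7% of all genes did, but 20 of 45 after quantile normalization (49.1% of all genes) and 17 of 45 after centring on array medians (7.39% of all genes). The count after centring rests on the low array median of MSE replicate 6, without which it was 40 of 45 (63.9% of all genes). The median difference of the members was -0.34 SDs, against -0.02 SDs over all genes. The medians of the resident macrophage and neutrophil genes were farther below 0 than those of the chemokines and sensors.

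**Figure D1:**
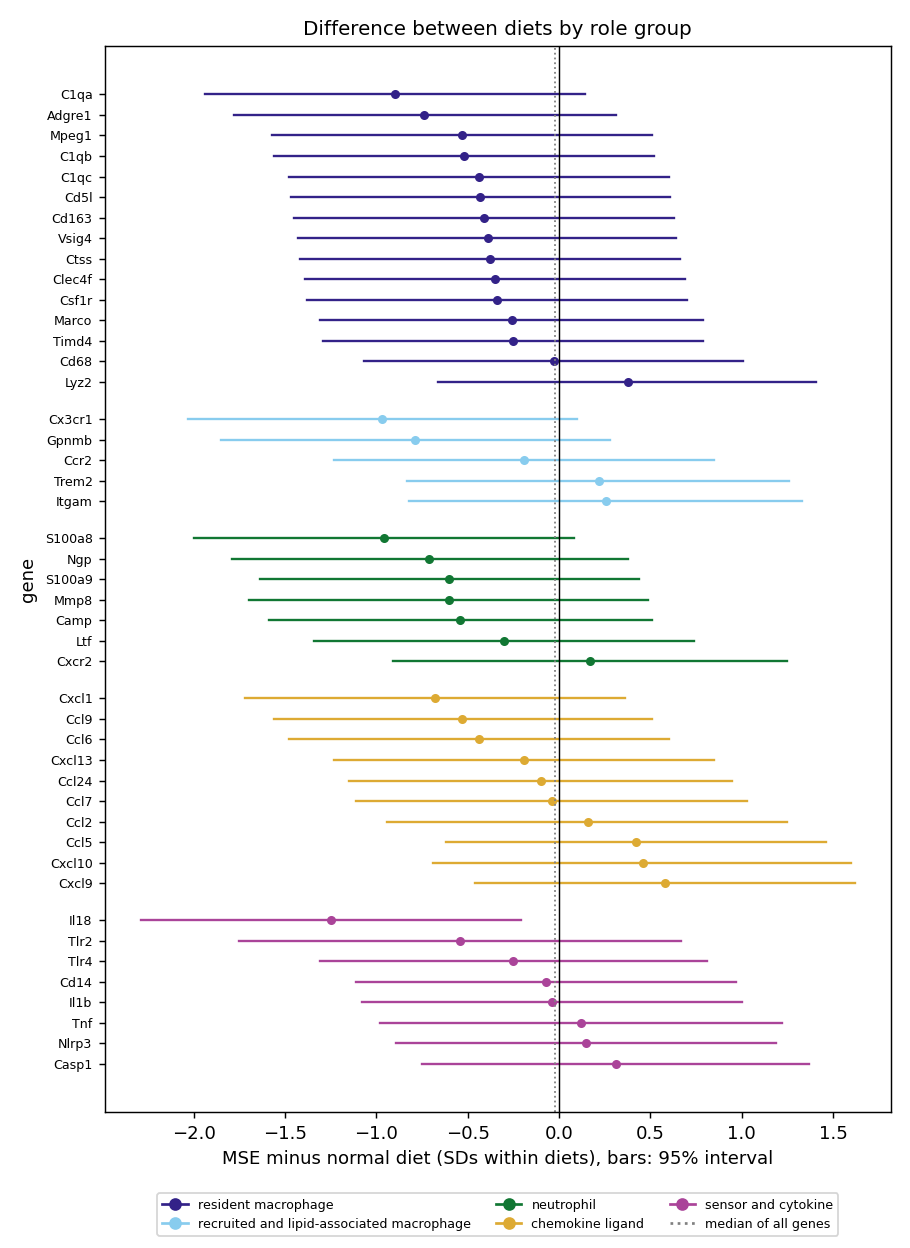
Difference between diets for each of the 45 genes, as MSE minus normal diet in SDs within diets on the horizontal axis, with bars for the 95% interval colours for the role groups and a dotted line at the median of all genes. Among the 15 resident macrophage genes 14 lie below 0 in the deposited values (4 after quantile normalization), and the interval of Il18 alone, from -2.29 to -0.21 SDs, does not reach 0.

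Resident macrophage genes had slightly lower means with MSE in 14 of 15 (93.3%), where 51.7% of all genes did. After quantile normalization 4 of 15 were lower (49.1% of all genes), with a median of 0.09 SDs. After centring on array medians, which rests on MSE replicate 6, 10 of 15 were lower (7.39% of all genes). In the deposited values Lyz2, a lysozyme, was the 1 higher at 0.38 SDs, with a group median of -0.39 SDs and a range of -0.90 to 0.38 SDs. Limma called 0 of them at an adjusted p under 0.05 and 0 at an unadjusted p under 0.05. In bulk liver, fewer macrophages and less RNA per macrophage cannot be told apart. The median stayed below 0 when each mouse was left out, at -0.66 to -0.22 SDs, with 13 or 14 genes lower. It was nearest to 0 without MSE replicate 5 (-0.22 SDs) or normal-diet replicate 2 (-0.23 SDs), over 1.5 times smaller than with all mice.

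C1qa encodes a chain of C1q, the recognition protein of the classical complement pathway, which liver makes mainly in macrophages. On the normal diet its deviation in single mice ran from -54.1 to 85.5 millionths with a median of 31.2, and on MSE from -63.6 to 61.2 with a median of -24.6. The diets overlapped widely, since MSE replicate 6 was above 7 of 8 normal-diet mice and normal-diet replicates 4 and 6 lay among the low MSE mice. The difference was -0.90 SDs (95% interval -1.94 to 0.14), lower in 47 of 64 pairs of 1 MSE and 1 normal-diet mouse, with an exact two-sided permutation p of 0.0928 and a limma adjusted p of 0.799. Its unadjusted limma p was under 0.05 without normal-diet replicate 4, normal-diet replicate 6 or MSE replicate 6, and the difference was 0.07 SDs after quantile normalization.

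Adgre1, which encodes the macrophage surface receptor F4/80, ran from -12.6 to 24.5 millionths with a median of 5.29 on the normal diet. On MSE it ran from -21.6 to 17.2 with a median of -6.22. Its difference was -0.74 SDs (95% interval -1.78 to 0.31), with an exact permutation p of 0.161 and a limma adjusted p of 0.852. It was -1.58 SDs after quantile normalization (unadjusted limma p 0.00618) and 0.09 SDs after centring on array medians. With a block for replicate number, a pairing that no label gives, its unadjusted limma p was 0.0374 (adjusted 0.527). Mpeg1, a pore-forming protein of phagocytes, had a difference of -0.53 SDs, and in MSE replicate 5 it stood at -587 millionths, the lowest of all 16 mice. Without that mouse the difference of Mpeg1 was -0.25 SDs, and after quantile normalization it was 0.10 SDs. C1qb, the second chain of C1q, was at -0.52 SDs (-0.31 without MSE replicate 5, -0.83 without MSE replicate 6 and 0.89 after quantile normalization) and C1qc, the remaining chain, at -0.44 SDs. Apart from Lyz2, the other resident genes lay between -0.43 SDs for Cd5l, a secreted survival factor of macrophages, and -0.03 SDs for Cd68, a lysosomal glycoprotein. Vsig4, a complement receptor of Kupffer cells, was at -0.39 SDs and Clec4f, a lectin that in mouse liver marks Kupffer cells, at -0.35 SDs. Cd163, the haemoglobin scavenger receptor, at -0.41 SDs, and Timd4, a receptor for dying cells, at -0.25 SDs, were as small beside their intervals.

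**Figure D2:**
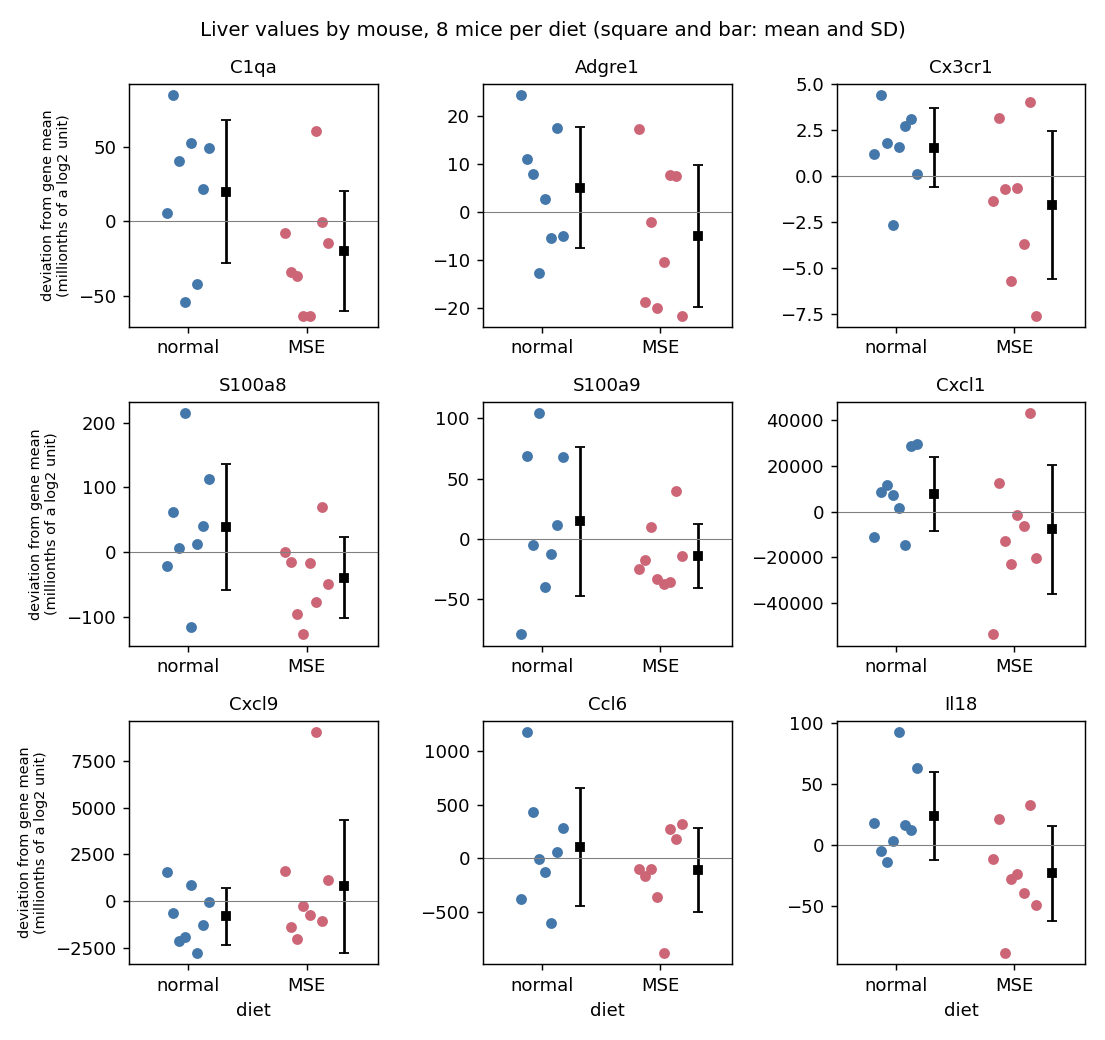
Deviation of 9 genes from their mean over 16 mice, in millionths of a log2 unit on the vertical axis, for each of 8 mice per diet, with a square and bar for the mean and SD. The diets overlap in each panel, and 1 MSE mouse sets the top of the Cxcl9 panel at 9039 millionths.

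What the resident macrophage genes shared was how they moved from mouse to mouse. With the diet means removed, the median Pearson r over their 105 pairs was 0.64, with a range of -0.40 to 0.91. Over all 165501721 pairs of genes the median was 0.00, and 1.18% of them were at or above the resident median. The median r was 0.58 within the normal diet alone and 0.66 within the MSE diet alone, and over all mice it was 0.16 after quantile normalization. All values of a mouse come from 1 liver piece, extract and array, so these r values describe the samples and are no test. With hepatocyte genes the median r of the resident genes was -0.02 over 150 pairs, and with sinusoidal endothelial genes 0.23 over 150 pairs. With T and NK cell genes it was 0.07 over 135 pairs and with stellate cell genes 0.10 over 150 pairs. The SDs within diets of the hepatocyte genes ran from 0.0447 to 1386 millionths. Some of them hardly varied in these values, so the low r with hepatocyte genes is not read as a separation from hepatocyte RNA.

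Because the 15 genes varied together, their directions are not 15 independent readings. The mean of their z values was 1.23 in normal-diet replicate 2, the highest mouse, and -1.03 in normal-diet replicate 6. On MSE it was 0.86 in replicate 7 and 0.80 in replicate 6, and -1.28 in replicate 5, the lowest mouse. Each diet therefore held mice near both ends of the range. Normal-diet replicate 2 was the highest mouse for 13 of the 45 members, and MSE replicate 5 the lowest for 10.

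**Figure D3:**
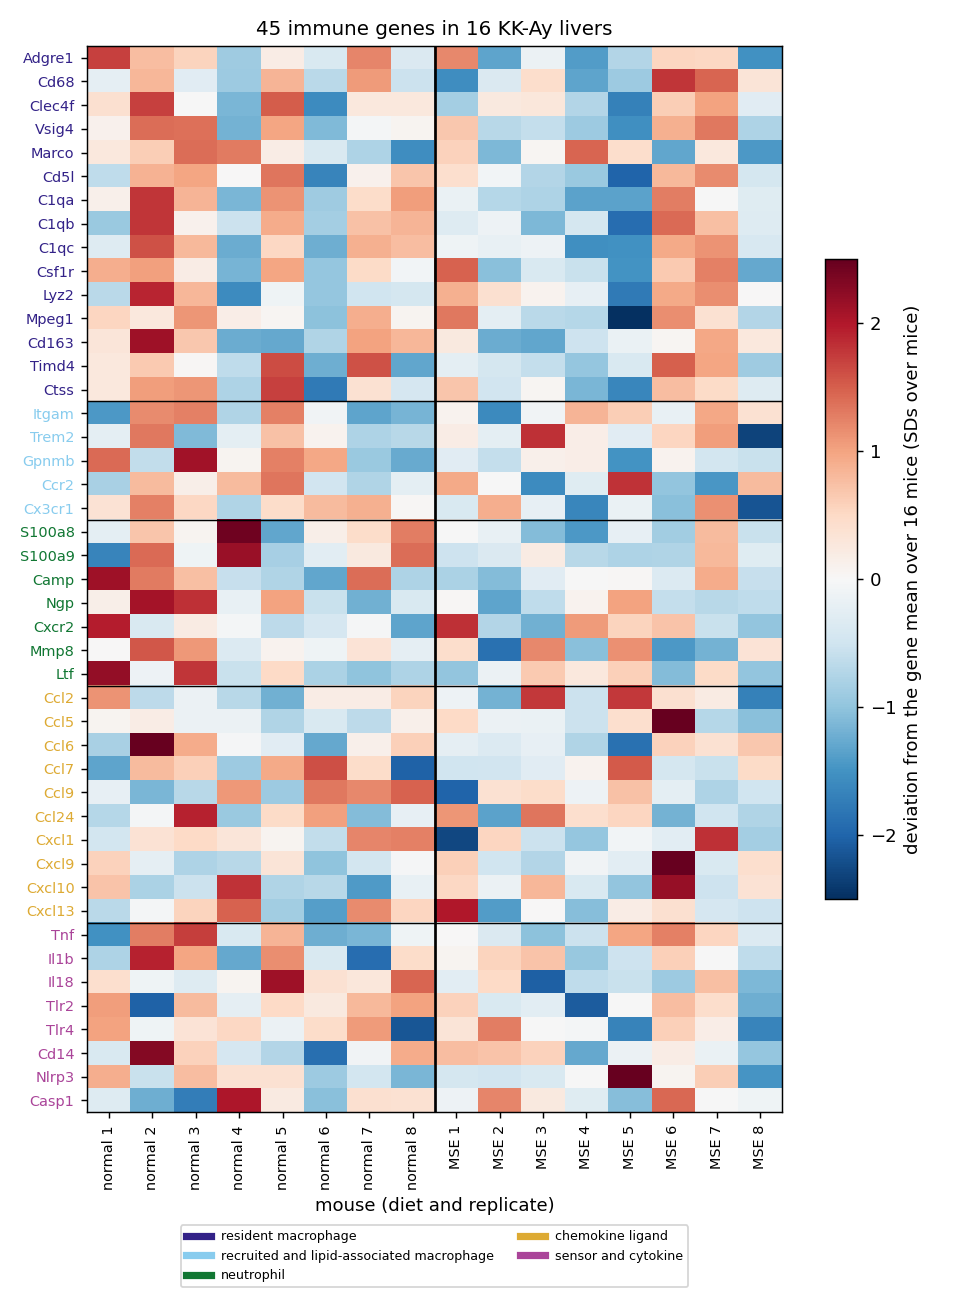
Deviation of each of 45 genes (rows, coloured by role group) in each of 16 mice (columns, normal diet on the left), in SDs over mice. Normal-diet replicate 2 is high and MSE replicate 5 low across most of the resident macrophage rows, while MSE replicate 6 is high for Ccl5, Cxcl9 and Cxcl10.

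Pairs of genes listed by function were also tested across mice, by permuting mice over both diets. The pairs were chosen with earlier results of these data known. Both values of a mouse share 1 liver piece, extract and array, so these p values do not tell a relation of the genes from a shared sample effect. Pearson r of C1qa with C1qb was 0.86 over 16 mice (permutation p 1e-05, the smallest that 100000 permutations can give, adjusted 1.20e-04 over 12 pairs) and Spearman rho was 0.85 (adjusted permutation p 3.60e-04). It was 0.86 within the normal diet and 0.85 within the MSE diet, and 0.77 without the 2 mice farthest from the median of C1qa, but 0.32 after quantile normalization. C1qa with C1qc gave r 0.89 and rho 0.86, and C1qb with C1qc r 0.85 and rho 0.82, with adjusted permutation p values of 1.20e-04 and 2.70e-04 for r and 3.60e-04 and 9.20e-04 for rho. After quantile normalization these r values were 0.29 and 0.80. Adgre1 with Csf1r, the receptor for the macrophage growth factor CSF1, gave r 0.84 and rho 0.80 (adjusted permutation p 2.70e-04 and 0.00108), 0.78 and 0.90 within the normal and MSE diets, and 0.83 without the 2 farthest mice, but -0.06 after quantile normalization. Clec4f with Vsig4 gave r 0.76 and rho 0.78 (adjusted permutation p 0.00132 and 0.00144), 0.66 without the 2 farthest mice and 0.67 after quantile normalization. Cd68 with Ctss, the lysosomal protease cathepsin S, gave r 0.57 and rho 0.61 (adjusted permutation p 0.0386 and 0.0231), 0.55 without the 2 farthest mice and 0.18 after quantile normalization.

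Marco, a scavenger receptor that Kupffer cells also carry, did not follow the others in the deposited values. Its median r with the other 14 resident genes was -0.06, where the others lay between 0.41 for Cd163 and 0.77 for C1qc, and with Cd5l it gave r -0.04 and rho 0.00 (adjusted permutation p 0.878 and 0.995). Other processing changed this: r of Marco with Cd5l was 0.44 after quantile normalization and 0.31 after centring on array medians. In that centring, which rests on MSE replicate 6, the lowest r of all 105 resident pairs was 0.03. Both probe sets of Marco had low means, 5.99 and 5.87 log2 units. Over 24 further macrophage genes the median r with the resident genes was 0.21, with single pairs from -0.62 to 0.91. Those closest to the resident group were Tyrobp, an adaptor of activating receptors, with a median r of 0.77, Folr2, a folate receptor of resident macrophages, with 0.73, and Cybb, a subunit of the phagocyte oxidase, with 0.73. Fcgr3 and Fcer1g, a receptor for antibodies and its signalling chain, followed with 0.72 and 0.66. At the other end were Slc40a1, the iron exporter ferroportin, at -0.25, Cd9, a tetraspanin, at -0.18, and Hmox1, heme oxygenase, at -0.16. These 8 were picked after their values were seen.

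**Figure D4:**
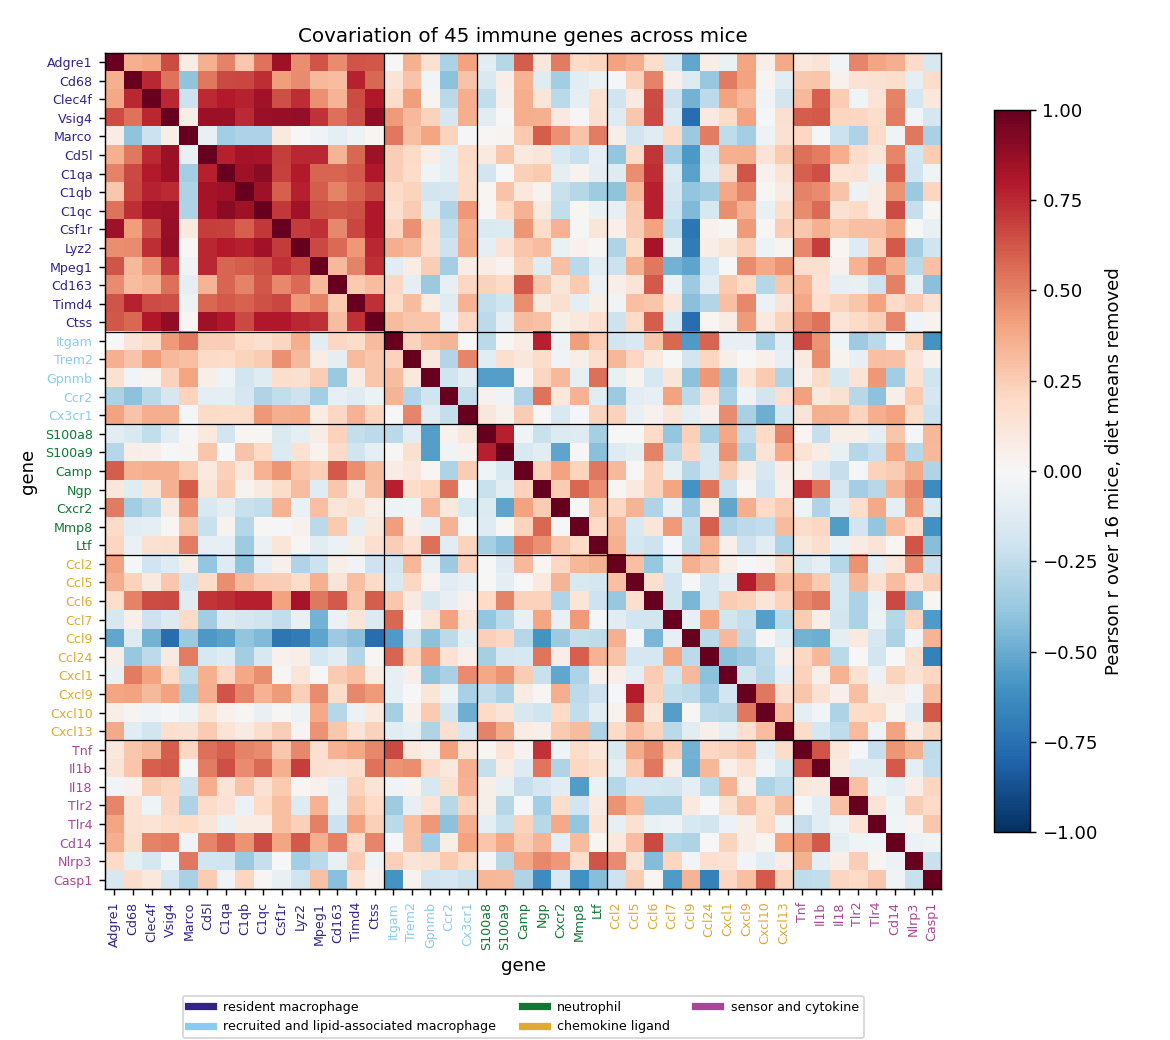
Pearson r between each pair of the 45 genes over 16 mice after removal of the diet means, with role groups separated by lines and colours from -1 (blue) to 1 (red). The resident macrophage block in the upper left is red apart from Marco, and Ccl9 forms a blue line against it.

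RefSeq promoter windows of the members (250 bases before to 50 after the gene's start, GRCm38.p6) were searched for the core of the site bound by PU.1. This is the transcription factor that macrophages and neutrophils depend on. The letters searched were GAGGAA on both strands. A window was listed for 36 of the 45 members, and the first listed was used. The letters occur in 7 of 12 resident macrophage windows (58.3%), in 4 of 7 neutrophil windows (57.1%), in 2 of 5 windows of recruited macrophage genes (40.0%), in 3 of 6 sensor windows (50.0%), in 0 of 6 chemokine windows and in 28.3% of all 27025 windows. A match describes the letters and is not a binding site. The neutrophil and sensor genes, with 57.1% and 50.0%, had a median r among themselves of only 0.01 and 0.00. Whether the letters go with covariation was not tested. The windows of C1qb (chr4:136886151-136886450, minus strand), C1qc (chr4:136892865-136893164, minus strand) and Vsig4 (chrX:96293389-96293688, minus strand) are shown because C1qc and Vsig4 had the highest median r within the covarying group, with Cd5l, and C1qb stands for the tested C1q pairs. Capitals mark the matches, which read TTCCTC where they lie on the opposite strand.
C1qb: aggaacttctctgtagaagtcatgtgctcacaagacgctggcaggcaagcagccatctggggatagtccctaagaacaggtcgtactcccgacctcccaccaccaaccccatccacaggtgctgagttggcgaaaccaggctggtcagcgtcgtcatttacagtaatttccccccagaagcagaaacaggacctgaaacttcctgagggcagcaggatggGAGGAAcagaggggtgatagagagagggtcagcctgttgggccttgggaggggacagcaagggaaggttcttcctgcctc
C1qc: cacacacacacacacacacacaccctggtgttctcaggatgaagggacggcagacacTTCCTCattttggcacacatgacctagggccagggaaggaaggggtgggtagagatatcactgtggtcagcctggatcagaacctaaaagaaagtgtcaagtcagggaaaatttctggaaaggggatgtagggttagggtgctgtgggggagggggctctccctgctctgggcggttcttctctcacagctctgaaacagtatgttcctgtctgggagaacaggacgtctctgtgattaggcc
Vsig4: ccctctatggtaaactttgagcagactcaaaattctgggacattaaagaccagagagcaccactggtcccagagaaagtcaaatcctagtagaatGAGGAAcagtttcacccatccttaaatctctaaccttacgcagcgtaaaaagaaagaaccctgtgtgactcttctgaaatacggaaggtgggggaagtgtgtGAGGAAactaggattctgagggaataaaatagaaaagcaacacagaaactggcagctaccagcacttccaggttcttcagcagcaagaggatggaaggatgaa

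Markers of recruited and lipid-associated macrophages showed no common direction. Of 5 genes 3 were lower and 2 higher with MSE, with a median of -0.19 SDs, and 0 had an unadjusted p under 0.05. Cx3cr1, the fractalkine receptor of monocytes and their descendants, ran from -2.66 to 4.43 millionths with a median of 1.71 on the normal diet, and from -7.57 to 4.02 with a median of -1.02 on MSE. The lowest 3 mice were all on MSE, while MSE replicates 2 and 7 were as high as the upper normal-diet mice. Its difference was -0.97 SDs (95% interval -2.03 to 0.10), with an exact permutation p of 0.0747 and a limma adjusted p of 0.789. Its unadjusted limma p was under 0.05 without normal-diet replicate 4, MSE replicate 2 or MSE replicate 7. With a block for replicate number, a pairing that no label gives, it was 0.0173 (adjusted 0.449).

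Gpnmb, a glycoprotein of lipid-laden macrophages, was at -0.79 SDs (95% interval -1.85 to 0.28, exact permutation p 0.138), and its other probe set at -0.69 SDs. Its unadjusted limma p was under 0.05 without normal-diet replicate 8. Trem2, a lipid-sensing receptor of the same cells, was at 0.22 SDs and changed sign to -0.02 SDs without MSE replicate 3. Itgam, the integrin CD11b of monocytes and neutrophils, was at 0.26 SDs. Ccr2, the receptor that brings monocytes to CCL2, was at -0.19 SDs on its main probe set and at -0.19, 0.23 and 0.36 SDs on the other 3. The group's genes did not covary, with a median r of 0.05 over 10 pairs, and their median r with the resident genes was 0.19 over 75 pairs. All 5 means lay between 5.53 and 6.14 log2 units.

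Neutrophil genes had lower means with MSE in 6 of 7, where 51.7% of all genes did, and none passed the test. After quantile normalization 6 of 7 were lower (49.1% of all genes). After centring on array medians, a setting that rests on MSE replicate 6, 2 of 7 were lower (7.39% of all genes). In the deposited values the group median was -0.60 SDs with a range of -0.96 to 0.17 SDs, and 0 had an unadjusted p under 0.05. S100a8 and S100a9 encode the subunits of calprotectin, the most abundant cytosolic protein of neutrophils. S100a8 ran from -115 to 214 millionths with a median of 26.4 on the normal diet, and from -127 to 70.1 with a median of -33.6 on MSE. The top of the normal-diet range was replicate 4 and then replicate 8, while replicate 5 of that diet was nearly as low as the lowest MSE mouse. The difference was -0.96 SDs (95% interval -2.0 to 0.08), lower in 49 of 64 pairs, with an exact permutation p of 0.0723 and a limma adjusted p of 0.787, and its unadjusted limma p was under 0.05 without normal-diet replicate 5 or MSE replicate 7.

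S100a9 ran from -79.7 to 104 millionths with a median of 3.17 on the normal diet and from -37.4 to 39.6 with a median of -21.2 on MSE. The MSE mice lay inside the normal-diet range, and the difference was -0.60 SDs (95% interval -1.64 to 0.44, exact permutation p 0.25). Leaving out replicate 1 of the normal diet brought it to -1.03 SDs, and leaving out replicate 4 to -0.38 SDs. Both calprotectin genes varied together, with r 0.80 and rho 0.78 over 16 mice (adjusted permutation p 4.80e-04 and 0.00152). The relation was r 0.86 within the normal diet and 0.52 within the MSE diet, where the exact permutation p was 0.194, and 0.58 without normal-diet replicates 4 and 8. With the resident macrophage genes the median r was -0.11 for S100a8 and 0.04 for S100a9.

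The granule genes varied less between mice than calprotectin did. Ngp, a neutrophil granule protein, was at -0.71 SDs, Mmp8, the neutrophil collagenase, at -0.60 SDs, Camp, the cathelicidin precursor, at -0.54 SDs, and Ltf, lactoferrin, at -0.30 SDs. Cxcr2, the receptor through which neutrophils follow CXC chemokines, was at 0.17 SDs. Camp with Ngp gave r 0.30 and rho 0.24 (adjusted permutation p 0.301 and 0.433), and 0.61 without normal-diet replicates 1 and 7. Over the 21 pairs of neutrophil genes the median r was 0.01. Their SDs within diets were 2.27 to 7.61 millionths for the granule genes and Cxcr2, against 81.4 for S100a8 and 47.6 for S100a9. The means of all 7 lay between 5.90 and 6.41 log2 units, near the array medians of 6.04, with S100a9 at 5.92. Without a detection call, small spreads at such levels are not read as a trait of the granule genes. The S100a8 window (chr3:90668821-90669120, plus strand) is shown because this gene had the lowest difference of the group, and it holds 2 matches to the PU.1 letters, both on the opposite strand.
S100a8: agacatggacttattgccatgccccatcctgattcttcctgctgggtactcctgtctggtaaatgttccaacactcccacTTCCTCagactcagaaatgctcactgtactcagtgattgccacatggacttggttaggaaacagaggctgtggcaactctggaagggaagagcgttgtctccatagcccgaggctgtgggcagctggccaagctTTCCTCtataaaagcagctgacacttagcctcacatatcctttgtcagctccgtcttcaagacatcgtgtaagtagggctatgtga

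**Figure D5:**
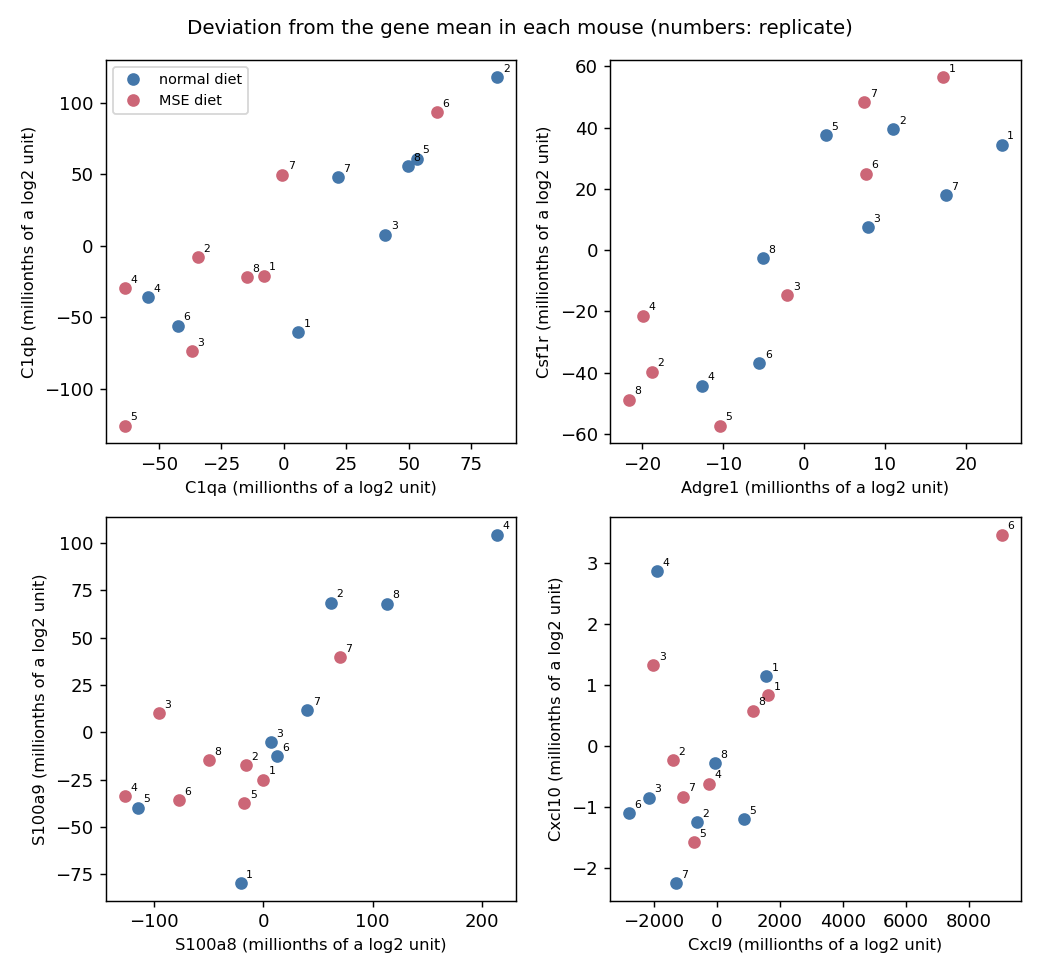
Deviations of 4 pairs of genes in each mouse, in millionths of a log2 unit on both axes, coloured by diet and numbered by replicate. C1qa with C1qb and Adgre1 with Csf1r follow a line in both diets, and S100a8 with S100a9 leans on normal-diet replicates 4 and 8. For Cxcl9 with Cxcl10, MSE replicate 6 lies far from the other mice.

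Chemokine ligands went both ways with MSE. Of 10 genes 6 were lower and 4 higher, with a median of -0.07 SDs and a range of -0.68 to 0.58 SDs, and 0 had an unadjusted p under 0.05. Of the 6 CC ligands 4 were lower, and of the 4 CXC ligands 2. The ligands also shared no course across mice, with a median r of -0.02 over 45 pairs.

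Cxcl1, a chemokine that draws neutrophils and that hepatocytes make in the acute phase, had the widest spread of all members, with an SD within diets of 22930 millionths. On the normal diet it ran from -14630 to 29690 millionths with a median of 7877, and on MSE from -53680 to 42900 with a median of -9478. The ends of the range were both MSE mice, replicate 1 the lowest and replicate 7 the highest. The difference was -0.68 SDs (95% interval -1.72 to 0.36, exact permutation p 0.200, limma adjusted p 0.874), without MSE replicate 7 it was -1.23 SDs with an unadjusted limma p under 0.05, and without MSE replicate 1 -0.46 SDs. The mean was 7.40 log2 units with an SD of 16160 millionths (n = 8) on the normal diet, and 7.38 log2 units with an SD of 28120 millionths (n = 8) on MSE. Its other probe sets gave -0.11 and -0.75 SDs.

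Its promoter window (chr5:90890995-90891294, plus strand) is shown because it holds the letters searched for NF-kB, the factor that inflammatory signals activate, namely GGGA, any base, TT, any base and CC. On both strands they were found in 1.17% of all windows, in 2 of 6 chemokine windows (Cxcl1 and Cxcl10) and in 1 of 6 sensor windows (Tlr2). They were in 0 of 12 resident macrophage, 0 of 5 recruited macrophage and 0 of 7 neutrophil windows. The match is in capitals.
Cxcl1: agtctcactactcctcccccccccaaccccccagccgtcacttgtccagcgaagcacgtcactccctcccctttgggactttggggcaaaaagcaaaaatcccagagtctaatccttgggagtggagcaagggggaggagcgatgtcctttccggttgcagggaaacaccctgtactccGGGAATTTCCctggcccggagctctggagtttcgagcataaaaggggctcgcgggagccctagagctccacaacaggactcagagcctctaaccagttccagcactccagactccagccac

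Cxcl9 and Cxcl10, which draw T cells and answer to interferon, and Ccl5, which T and NK cells release, were highest in the same mouse. In MSE replicate 6 Cxcl9 stood at 9039 millionths, Cxcl10 at 3.46 and Ccl5 at 243, each the highest of the 16 mice. The other 15 mice lay between -2777 and 1634 millionths for Cxcl9, and between -2.25 and 2.87 for Cxcl10. Cxcl10, with a low mean of 5.96 log2 units, was thus little above the next mouse, normal-diet replicate 4. The array of MSE replicate 6 also had a median 95.1 to 139 millionths below the other 15. The differences were 0.58 SDs for Cxcl9 (95% interval -0.46 to 1.62, exact permutation p 0.291), 0.46 SDs for Cxcl10 and 0.42 SDs for Ccl5. Without MSE replicate 6 that of Cxcl9 was 0.29 SDs. Cxcl9 with Cxcl10 gave r 0.56 (adjusted permutation p 0.042) but rho 0.29 (adjusted permutation p 0.365). That r fell to 0.05 without MSE replicates 1 and 6, the 2 mice farthest from the median of Cxcl9. MSE replicate 1, at 1634 millionths for Cxcl9 and 0.829 for Cxcl10, lay near normal-diet replicate 1, at 1577 and 1.15. Only MSE replicate 6 stood far apart for Cxcl9, and r without it alone was not computed.

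Ccl6 and Ccl9 are related CC chemokines of mouse myeloid cells. Ccl6 ran from -605 to 1177 millionths with a median of 26.7 on the normal diet and from -883 to 316 with a median of -102 on MSE. Its difference was -0.44 SDs (exact permutation p 0.409). Leaving out MSE replicate 5 brought it to -0.22 SDs, and leaving out replicate 2 of the normal diet to -0.15 SDs. Ccl9 ran from -250 to 320 millionths with a median of 94.7 on the normal diet and from -439 to 159 with a median of -41.7 on MSE, and its difference was -0.53 SDs (exact permutation p 0.307), or -0.31 without MSE replicate 1 and 0.21 after quantile normalization.

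Across mice, with diet means removed, Ccl6 had a positive r with 14 of 15 resident macrophage genes and a median of 0.62, up to 0.82. Ccl9 had a negative r with all 15 and a median of -0.52, down to -0.76. Between the pair r was -0.37 and rho -0.31, which did not pass (adjusted permutation p 0.213 and 0.354), and r was -0.47 within the normal diet, -0.45 within the MSE diet and -0.16 without the 2 farthest mice. Another probe set of Ccl6 was at -1.24 SDs with an unadjusted limma p of 0.022 over all probe sets. The other ligands were small beside their intervals: Cxcl13, which draws B cells, at -0.19 SDs, Ccl24, which draws eosinophils, at -0.10 SDs, and Ccl7 and Ccl2, which draw monocytes, at -0.04 and 0.16 SDs. Ccl2 with Ccl7 gave r -0.11 and rho -0.21 (adjusted permutation p 0.754 and 0.471). Both had low means, 6.16 and 5.78 log2 units.

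Sensors and cytokines were lower in 5 of 8 with a median of -0.06 SDs, and Il18 had the lowest difference of all 45 members. Il18 encodes a cytokine that caspase-1, the product of Casp1, cuts into its active form. On the normal diet it ran from -13.9 to 92.9 millionths with a median of 14.5, and on MSE from -89.1 to 32.7 with a median of -26.0. The lowest 5 mice were all on MSE, but MSE replicates 2 and 7 were higher than 6 of the normal-diet mice. The difference was -1.25 SDs (95% interval -2.29 to -0.21), lower in 51 of 64 pairs, with an exact permutation p of 0.0236 before any adjustment and a limma adjusted p of 0.685. When each mouse was left out it stayed between -1.56 and -1.11 SDs with an unadjusted limma p under 0.05 each time. After quantile normalization it turned to 1.76 SDs, with a smaller unadjusted limma p than as deposited (0.00286 against 0.0218) and an adjusted p of 0.339. After centring on array medians, a setting that rests on MSE replicate 6, it was -0.68 SDs (unadjusted limma p 0.174). The direction thus depends on the normalization.

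Other genes of the pathway lay nearer to 0 than Il18. Casp1 was at 0.31 SDs (95% interval -0.75 to 1.37) and Nlrp3, the inflammasome sensor that activates it, at 0.15 SDs, with MSE replicate 5 the highest mouse at 41.7 millionths. Il1b, the other cytokine that caspase-1 matures, was at -0.04 SDs, and Tnf, an early inflammatory cytokine, at 0.12 SDs. Tlr2 and Tlr4, receptors for bacterial lipoproteins and lipopolysaccharide, were at -0.54 and -0.25 SDs, and Cd14, their shared co-receptor, at -0.07 SDs. These intervals all span 0 and reach at least 0.67 SDs on either side of it, so they do not show that the genes were equal on both diets. The median r of these genes with each other was 0.00 over 28 pairs, and Il1b and Cd14 had a median r with the resident macrophage genes of 0.47 and 0.48. Tnf, Tlr2, Tlr4, Nlrp3 and Casp1 had low means, 5.62 to 6.13 log2 units, where the array medians were 6.04.

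Of 89 further genes of the same systems that were measured, from 99 listed, 57 (64.0%) were lower with MSE in the deposited values, where 51.7% of all genes were. At an unadjusted p under 0.05 there were 2 lower and 2 higher (4.49%, against 6.66% of all genes). Limma called 0 of them at an adjusted p under 0.05. Macrophage genes were lower in 17 of 24, neutrophil genes in 9 of 13, sensing genes in 19 of 28 and chemokine system genes in 12 of 24. Fcgr1, the high-affinity antibody receptor of macrophages, was at -1.54 SDs, lower in all but 10 of 64 pairs, and Spi1, which encodes PU.1, at 0.80 SDs. Irak1, a kinase below the Toll-like receptors, was at -1.58 SDs, and Ticam1, an adaptor of Tlr3 and Tlr4, at 1.52 SDs. Among chemokines Ccl3 was at -1.06 SDs and Cxcl11 at 0.88 SDs. Mcemp1, a membrane protein of myeloid cells, was at 1.49 SDs, and Lcn2, a neutrophil granule protein that hepatocytes make in the acute phase, at -0.78 SDs. Their limma adjusted p values ran from 0.577 to 0.842.

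No gene in the marker lists of other liver cells was called at an adjusted p under 0.05. The counts by direction are for the deposited values alone, where 51.7% of all genes were lower with MSE. Sinusoidal endothelial genes were higher in 8 of 10, with a median of 0.45 SDs, and Kdr, a receptor for vascular growth factor, at 1.80 SDs (limma adjusted p 0.488). T and NK cell genes were higher in 8 of 9 with a median of 0.47 SDs, and stellate cell genes in 6 of 10 with a median of 0.19 SDs. Blood cell genes were lower in 4 of 5 with a median of -0.25 SDs, bile duct genes higher in 5 of 6 with a median of 0.21 SDs, B and plasma cell genes 3 each way with 0.21 SDs, and hepatocyte genes 5 each way with -0.11 SDs. At an unadjusted p under 0.05, where 2.59% of all genes were higher and 4.07% lower, 3 of 10 endothelial genes were higher and 1 lower, 1 gene each of the T and NK, B and plasma, and bile duct lists was higher, and 1 each of the blood and hepatocyte lists lower. Their part in the macrophage and neutrophil values was not tested.

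Several probe sets were present for 13 of the 45 members, and for 11 of these they all went the same way. The exceptions were Ccr2 and Tlr4. All 3 probe sets of C1qb were lower, at -0.52, -0.30 and -0.64 SDs, as were all 3 of Csf1r, at -0.34, -0.34 and -0.03 SDs, and both of Cxcl9 were higher, at 0.58 and 0.57 SDs.

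The authors' deposited table carries its own false discovery rates, and by these many more members differ. Of 45 members, 10 (22.2%) have a rate under 0.05 in the authors' deposited table for lower expression with MSE, where 3.76% of all genes do, and 1 (2.22%) for higher expression, where 2.52% of all genes do. Those lower in the authors' deposited table are Cd5l, C1qa, Mpeg1, Cd163, Ctss, S100a8, Ccl6, Ccl9, Cxcl1 and Il18, and the 1 higher is Cxcl9. These 11 had SDs within diets of 37.6 to 22900 millionths, and the other 34 had 1.23 to 73.3, so the ranges overlap. All 11 lie among the 1820 genes with the largest SDs, those above 37.0 millionths. Among those the authors' deposited table calls 34.0% lower and 23.2% higher, against 0.403% lower among the rest. It calls 10 of the 19 members there lower (52.6%) and 1 higher, and the rest neither way. Some rates in the authors' deposited table exceed 1, such as 1.235 for Cd68, and how they were estimated is not known here.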

How the data were processed

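Liver RNA of 16 mice, 8 per diet, was hybridised to 3' oligonucleotide arrays. Per the labels' protocols, total RNA was purified with a DNase step and labelled with biotin. The authors deposited 45101 log2 expression values per array, a base read from their range and stated nowhere. Per the submitters' processing notes R 3.2.2 was used; summarization and normalization are not given in the sources used here. Both deposited tables held equal sorted values within each diet (largest difference 0). The authors' deposited false discovery rates are scores that can exceed 1. The labels give no batch or scan date, and call the samples biological replicates.

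Of the probe sets, 34958 named 1 gene in the platform annotation, 932 named several and 9211 were unlisted. Entrez IDs matched 34754 of the first to the reference, and 0 symbols changed. Limma 3.58.1 (R 4.3.3) compared the diets (lmFit, eBayes, two-sided, no covariate, Benjamini-Hochberg over 18194 genes, threshold 0.05). Single genes were also tested exactly over all 12870 regroupings. Python 3.11.15, NumPy 2.4.6 and SciPy 1.17.1 gave the rest. The members, lists and pairs were chosen with earlier results of these data known, so no list test was run. By the rule for naming, the text names the 4 members of each of 5 role groups with the smallest limma p, the 2 such genes of each further list and the listed pairs, the member with the largest SD, and members whose probe sets disagree with 1 at p under 0.05 (there were 0); any other gene named was chosen after its values were seen. On simulated data with these genes' spreads, limma recovered 0.597%, 26.6% and 83.9% of genes shifted by 1, 2 and 3 SDs, and 3.16% of its calls were false. Alternatives were quantile normalization, centring, the brighter genes alone, limma with an intensity trend and robust variances, weighted arrays, a replicate block, the mean of probe sets, leaving out each mouse, and a threshold of 0.1. Centring on the median deviation, and centring on array medians without MSE replicate 6, were chosen after seeing the data.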

Additional observations from a re-analysis of the deposited data

Results flagged for a closer look

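In 5 of 40 groups of 8 values for the named members, 1 mouse stood apart from the rest by more than Dixon's 95% critical value, which chance alone does in about 1 of 20 such groups. The ratio of the gap to the range was 0.670 for Cxcl9 on MSE (replicate 6, high), 0.544 for Itgam on MSE (replicate 2, low) and 0.543 for Gpnmb on MSE (replicate 5, low). On the normal diet it was 0.588 for Tlr2 (replicate 2, low) and 0.621 for Tlr4 (replicate 8, low). For Tlr2, Tlr4, Itgam and Gpnmb the SD within diets was 1.23, 3.89, 2.78 and 3.32 millionths of a log2 unit, and for Cxcl9 it was 2733.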

How the results depend on the processing

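In all settings tried 0 members passed a limma adjusted p of 0.05, the smallest being 0.339 after quantile normalization, and 0 passed 0.1 in the deposited values. The 1 member lower at an unadjusted p under 0.05 became 3 with the replicate block and 0 after centring on array medians. The count was 1 to 4 when a mouse was left out (Il18 each time, 4 without MSE replicate 7, 3 without normal-diet replicate 4). At that rule, in either direction, limma found 6.66% of all genes as deposited, 8.87% with the block and 1.26% after centring. With a mouse left out it found 5.61% to 7.66% of all genes, 6.91% without MSE replicate 7 and 6.06% without normal-diet replicate 4. After quantile normalization Il18 was the 1 member higher and Adgre1 (-1.58 SDs) the 1 lower, where 8.06% of all genes were under 0.05. Members lower in direction were 34 as deposited (51.7% of all genes) and 30 to 35 with a mouse left out. They were 20 after quantile normalization (49.1% of all genes) and 17 after centring on array medians (7.39% of all genes). In the upper part of genes by level, where fewer genes are tested, 18 of the 20 members were lower, and 55.8% of all genes there.

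Quantile normalization turned C1qa (0.07 SDs), Mpeg1 (0.10), C1qb (0.89), Ccl9 (0.21), Il18 (1.76), Tlr2 (0.35), Tlr4 (0.25) and Itgam (-0.50), left 4 of 15 resident genes lower, and brought r to -0.06 for Adgre1 with Csf1r, 0.32 for C1qa with C1qb, 0.29 for C1qa with C1qc, 0.18 for Cd68 with Ctss and 0.44 for Marco with Cd5l. Centring on array medians turned Adgre1 (0.09), Cx3cr1 (0.33), Gpnmb (0.34), Ngp (0.38), Mmp8 (0.40), Tlr2 (0.40) and Tlr4 (0.39), and brought r to 0.98 for Camp with Ngp, 0.99 for Ccl2 with Ccl7 and 0.31 for Marco with Cd5l. The mean of probe sets turned Tlr4 (0.09), and without MSE replicate 3 Trem2 was at -0.02, of a range of -0.02 to 0.73. Neighbouring probe sets at an array's median lie 34.6 millionths apart on average and 4 probe sets serve as the median of the 16 arrays, and centring moves every difference by 13.1 millionths. That shift comes from MSE replicate 6, whose median lies 95.1 to 139 millionths below the other 15. Without it and with centring, chosen after seeing the data, the shift is -0.689 and 40 of 45 members are lower (63.9% of all genes). At the members' levels the steps between neighbouring probe sets, which quantile normalization moves along, are 26.9 to 599 millionths, above the difference of 40 of 45 members. Their part in the turned signs was not tested. Centring each array on the median deviation of its genes, chosen after seeing the data, moves every difference by 0.136 millionths. It leaves 33 members and 14 of 15 resident genes lower (48.9% of all genes). The resident median r is 0.64 there, 0.16 after quantile normalization and 0.75 after centring on array medians. Same-numbered mice had correlations of -0.026 to 0.218, over 0.1 in 5 of 8 numbers. Since 3 were not and no label ties the numbers, they were not taken as pairs, although 9 of 16 mice correlated best with their own number, a hint from the data. With the replicate block Adgre1 (p 0.0374), Cx3cr1 (p 0.0173) and Il18 (p 0.0332) had an unadjusted limma p under 0.05. Of all genes 8.87% did so there, and 1 of 18194 had a limma adjusted p under 0.05. In simulation 0.597% of genes shifted by 1 SD were recovered at this size.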
